A study of Homo sapiens with 8 samples.

Results

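The KLHL family was taken as all genes whose symbol is KLHL followed by a number, found through the RefSeq accession that each array probe carries. The RefSeq table used here held 37 such symbols and 37 were on the arrays, through 45 probes out of 42405 that are not controls. The family was looked at because KLHL1 had fallen in these same samples, so the fall of KLHL1 is given as a description with no test, and the comparison of interest is whether any paralogue, chosen by its symbol alone, fell with it. Of the 37 genes, 33 passed the filter on low signal (a mean of at least 3 on the log2 scale over all arrays), namely KLHL1 and 32 paralogues, out of 28849 genes tested in all. The other 4, KLHL4, KLHL14, KLHL30 and KLHL40, did not pass it.

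KLHL proteins carry an N-terminal BTB domain, a BACK domain and a C-terminal propeller of Kelch repeats. The BTB and BACK domains bind the scaffold protein CUL3, the Kelch repeats bind a substrate, and the complete CUL3-RBX1 ligase then attaches ubiquitin to that substrate, so each KLHL protein is thought of as an exchangeable adaptor. KLHL1 is an actin-binding member known mainly from neurons of the brain, and its closest relatives in the family are KLHL4 and KLHL5.

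The cells were LNCaP, a line from a metastasis of a human prostate cancer, and received 30 nM of a siRNA against the transcription factor gene GATA2 (siGATA2, 4 arrays) or with a scrambled siRNA (siControl, 4 arrays). RNA was taken after 72 h and hybridised to one-colour Agilent arrays, and the submitters call the 4 arrays of a group biological replicates. By the labels both groups received the same reagent and dose and differ in the siRNA, and a single siRNA treatment in a single cell line limits them as a model of GATA2 loss. Values are log2 processed signals (background-corrected intensity) after quantile normalization, and each log2 fold change is siGATA2 minus siControl, taken between group means.

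GATA2 itself did not check the labels. Its signal was 12.61, 12.54, 11.57 and 11.40 on siGATA2 arrays 1 to 4 and 11.74, 11.28, 11.10 and 11.29 on siControl arrays 1 to 4 (log2 fold change 0.68, standard error 0.312, adjusted p = 0.154), so the targeted transcript was not lower in the arrays labelled siGATA2, and every direction below rests on the labels. The 7 markers of LNCaP cells reported here (KLK3, KRT8 and others) were well above background on all 8 arrays. The number of probes well above background (brighter than the array's own background by the scanner software's test) was 24331 on siControl array 3, 28501 on siControl array 1, and elsewhere from 34022 to 36976. The spiked-in E1A transcripts read 11.13 on siControl array 1, and elsewhere from 13.45 to 13.83. All arrays lay on 1 slide, where row 1 held 3 arrays of siGATA2 and 1 of siControl and row 2 held 1 and 3, so group and row partly coincide.

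Some promoter windows are shown, because KLHL1, KLHL7 and KLHL35 carry the comparison of the family: KLHL1 for its fall, KLHL7 for the lowest value among the paralogues and KLHL35 for the tightest replicates among the paralogues that fell by at least 2-fold. Each is the 250 bases before an annotated transcription start, 5′ to 3′ on the gene's own strand, from RefSeq (assembly GRCh38.p14). Capitals mark the hexamers AGATAA, then AGATAG, then TGATAA and lastly TGATAG, which are common forms of the sequence GATA factors bind, searched on both strands, so that a hexamer on the other strand appears as its reverse complement. The windows lie at chr13:70108453-70108702 (minus strand) for KLHL1, chr11:75433204-75433453 (minus strand) for KLHL35, and chr7:23105535-23105784 and chr7:23106411-23106660 (both plus strand) for the starts of KLHL7.
KLHL1: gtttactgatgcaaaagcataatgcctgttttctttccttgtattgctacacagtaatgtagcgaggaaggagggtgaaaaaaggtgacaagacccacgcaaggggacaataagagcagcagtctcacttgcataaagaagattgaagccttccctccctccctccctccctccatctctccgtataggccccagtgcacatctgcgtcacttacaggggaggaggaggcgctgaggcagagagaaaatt
KLHL35: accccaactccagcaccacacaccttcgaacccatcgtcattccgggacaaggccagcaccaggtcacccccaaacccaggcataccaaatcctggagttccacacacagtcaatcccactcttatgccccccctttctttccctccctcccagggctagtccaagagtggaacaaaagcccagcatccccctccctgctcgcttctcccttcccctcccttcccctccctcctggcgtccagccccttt
KLHL7, first start: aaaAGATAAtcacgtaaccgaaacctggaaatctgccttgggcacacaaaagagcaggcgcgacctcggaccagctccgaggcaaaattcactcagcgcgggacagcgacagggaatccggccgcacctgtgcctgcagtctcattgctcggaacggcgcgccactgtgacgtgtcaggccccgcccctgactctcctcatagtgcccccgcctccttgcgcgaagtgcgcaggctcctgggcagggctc
KLHL7, second start: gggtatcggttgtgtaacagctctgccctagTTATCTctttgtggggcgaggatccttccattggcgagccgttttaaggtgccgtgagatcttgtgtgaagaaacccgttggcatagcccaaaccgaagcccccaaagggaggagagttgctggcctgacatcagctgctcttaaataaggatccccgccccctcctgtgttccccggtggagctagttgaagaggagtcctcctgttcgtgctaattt

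The KLHL1 and KLHL35 windows held none of the hexamers. Each KLHL7 window held 1, starting 247 and 219 bases before its start. Of 44 windows of KLHL genes 10 held a match (22.7%), against 22.3% of all 35116 windows, and by gene 9 of the 33 KLHL genes with a window held one (27.3%), against 26.2% of all genes. KLHL14, KLHL23, KLHL31 and KLHL38 had no window. Binding of GATA2 was not measured in these samples, and the matches are a description of the letters only.

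KLHL1 was measured by 1 probe, which was well above background on all 8 arrays. Its signal was 10.63, 11.10, 10.93 and 11.11 on siControl arrays 1 to 4 and 5.59, 5.61, 5.47 and 5.68 on siGATA2 arrays 1 to 4. The groups were far apart, with 4.94 on the log2 scale between the lowest siControl and the highest siGATA2 array, while the range within a group was 0.48 and 0.21. The means were 10.94 ± 0.225 (SD, n = 4) and 5.59 ± 0.0872 (SD, n = 4), a log2 fold change of -5.35 or a signal 40.8-fold lower in siGATA2. No other of the 28849 genes had a lower log2 fold change. In bulk RNA, fewer cells with the transcript and less of it per cell cannot be told apart.

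The fall of KLHL1 was present in the intensities before any normalization between arrays. They were 954, 2929, 2073 and 2570 on siControl arrays 1 to 4 and 59.5, 62.0, 43.9 and 51.3 on siGATA2 arrays 1 to 4. Within row 1 of the slide the difference was -5.55 (3 siGATA2 arrays and 1 siControl array) and within row 2 it was -5.20 (1 and 3). Over the alternatives of processing the log2 fold change lay between -5.83 and -3.88, the smallest with a normexp background correction whose offset shrinks dim signals, where KLHL1 ranked 3 by its fall. ATXN8OS, the antisense transcript that overlaps KLHL1, was well above background on 1 of 4 siGATA2 arrays and 0 of 4 siControl arrays, with means of 2.23 and 2.24. Of the nearest protein-coding genes on either side, PCDH9, a protocadherin gene, was well above background on no array with either of its probes, and DACH1, a transcription factor gene, had 4.59, 4.54, 5.55 and 5.62 on siGATA2 and 6.07, 6.48, 5.69 and 6.82 on siControl arrays 1 to 4 (log2 fold change -1.19, standard error 0.346, adjusted p = 0.0373). This DACH1 probe, the brighter of 2, was not well above background on 1 siControl array. The other DACH1 probe was well above background on 0 siGATA2 and 2 siControl arrays, with means of 2.23 and 4.18.

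**Figure D1:**
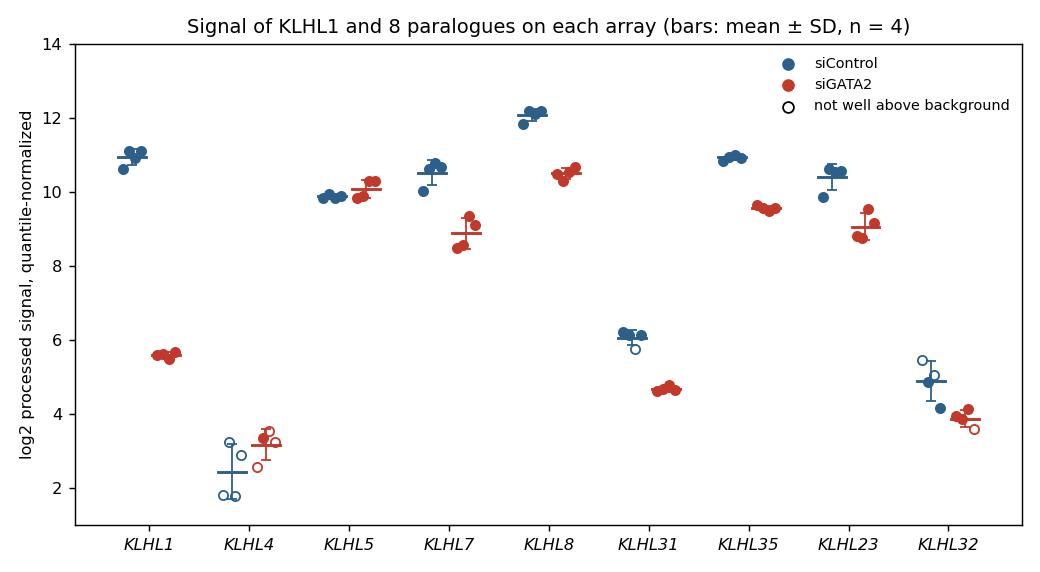
Log2 processed signal of KLHL1, its closest relatives KLHL4 and KLHL5, and the 6 paralogues that fell by at least 2-fold, for each array (siControl blue, siGATA2 red), with the mean and SD of 4 arrays. Open circles are spots not well above background. KLHL1 moved from a mean of 10.94 to 5.59, while the KLHL5 groups overlap and KLHL4 is near background in both.

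No paralogue came near the size of the KLHL1 fall. Of the 32 paralogues tested, 7 were lower in siGATA2 at an adjusted p under 0.05 (21.9%), against 14.2% of all genes tested and 19.5% of genes measured, as all tested KLHL genes were, through the RefSeq accession of a curated messenger RNA. A further 3 were higher (9.38%), against 12.3% and 15.3%, and 22 passed the test in neither direction. Of the 7, 6 fell by at least 2-fold (18.8%), against 7.13% of all genes and 9.94% of those with a curated messenger RNA, and 0 rose by at least 2-fold, against 4.52% and 5.41%. The median log2 fold change of the 32 was 0.16 and that of all genes 0.09, but with scaling to the E1A spike-in transcripts in place of quantile normalization both became negative, -0.43 and -0.43. That scaling raises siControl array 1 against all others, because its spike-ins read 11.13, against 13.45 to 13.83 elsewhere. Results with E1A scaling therefore depend on that array.

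The lowest paralogue, KLHL7, had a log2 fold change of -1.65, which is 3.71 above that of KLHL1. The 95% confidence interval of a paralogue's log2 fold change reached the value of KLHL1 in 0 of 32 cases, and the lowest bound of any was -2.23, that of KLHL7. KLHL1 was chosen by its fall and had the lowest value of all 28849 genes. The count of 0 was therefore close to fixed for any set of genes, and it is no test of the family. In 24 of the 32 the interval lay wholly above -1, the value of a 2-fold fall, and this was so for 20 of the 22 that passed the test in neither direction. In all, 10 of the 32 log2 fold changes were below 0 and 22 above, and 17 were within 0.4 of 0. The shares of all genes for these counts of intervals and signs were not taken, so the counts are a description only. The groups did not overlap in 8 paralogues that were lower (25.0%, against 16.5% of all genes) and in 5 that were higher (15.6%, against 16.2%). Among genes with a curated messenger RNA these shares were 22.2% lower and 19.2% higher.

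**Figure D2:**
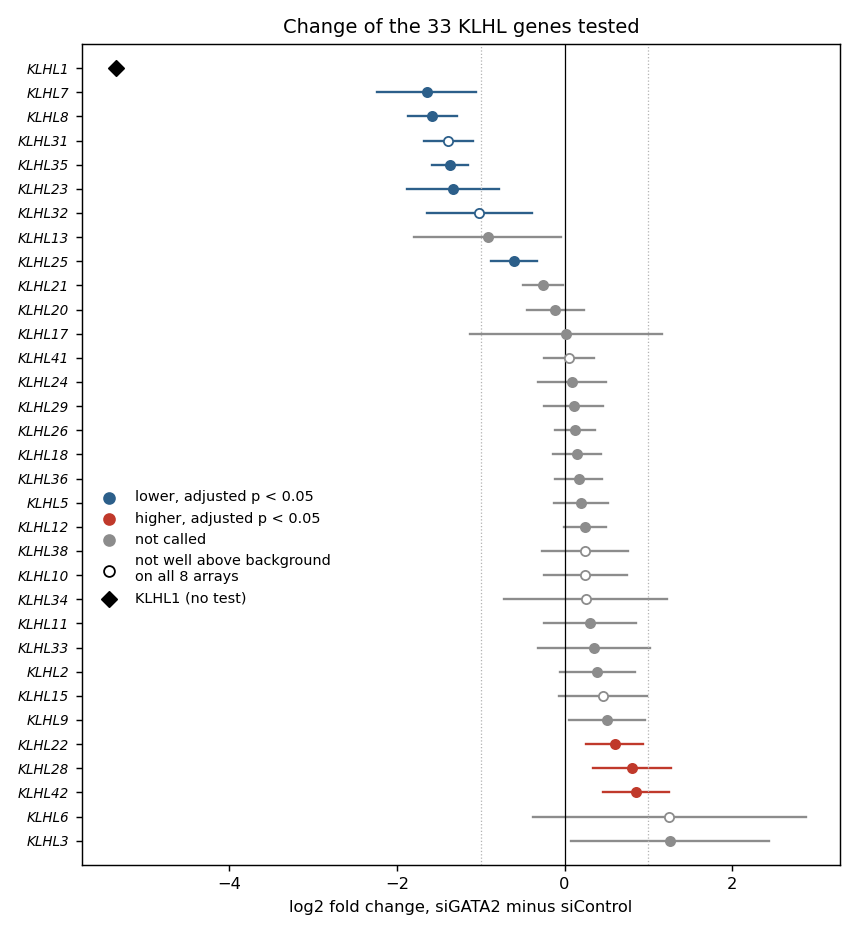
Log2 fold change (siGATA2 minus siControl) of the 33 KLHL genes tested, with the 95% confidence interval from limma for the paralogues. Blue is lower, red higher and grey not called at an adjusted p under 0.05, open circles were not well above background on all 8 arrays, and dotted lines mark a 2-fold change. KLHL1 at -5.35 is apart from all others, the next being KLHL7 at -1.65.

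Of the closest relatives of KLHL1, KLHL5 did not share its fall and KLHL4 was too near background to be judged. KLHL5 had 9.83, 9.90, 10.29 and 10.29 on siGATA2 arrays 1 to 4 and 9.84, 9.94, 9.84 and 9.90 on siControl arrays 1 to 4. The groups overlapped, since siGATA2 arrays 1 and 2 lay among the siControl arrays and arrays 3 and 4 above them. The difference, 0.20 in log2 units (standard error 0.138, adjusted p = 0.331), had a 95% interval from -0.12 to 0.52, and a further probe for KLHL5 gave 0.55 (adjusted p = 0.158). KLHL4 had 2.57, 3.35, 3.53 and 3.23 on siGATA2 and 1.81, 3.23, 1.79 and 2.89 on siControl arrays 1 to 4, and its probe was well above background only on siGATA2 array 2. No fold is given for it, nor for KLHL14, KLHL30 and KLHL40, which were well above background on 0, 0 and 1 of 8 arrays. KLHL40 is known from skeletal muscle.

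Among the paralogues that fell, KLHL7, a CUL3 adaptor mutated in some forms of retinitis pigmentosa, had 8.49, 8.56, 9.36 and 9.12 on siGATA2 and 10.02, 10.63, 10.79 and 10.67 on siControl arrays 1 to 4. The groups did not overlap, and its signal was 3.13-fold lower (log2 fold change -1.65, standard error 0.253, adjusted p = 0.00215). Its 3 probes differed in size: the other probe to the same transcript accession gave -1.18 (adjusted p over all probes 0.0193) and the probe to a second accession -0.49 (adjusted p over all probes 0.128). The call for KLHL7 therefore holds for the probes of one accession and was not made by the probe of the other.

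KLHL8 had 10.47, 10.30, 10.54 and 10.68 on siGATA2 and 11.84, 12.18, 12.11 and 12.18 on siControl arrays 1 to 4. All siGATA2 arrays lay more than 1 below all siControl arrays, and the signal was 2.98-fold lower (log2 fold change -1.58, standard error 0.128, adjusted p = 9.81e-05). KLHL35 had 9.65, 9.56, 9.49 and 9.56 against 10.85, 10.95, 11.01 and 10.93. Its replicates were tight in both groups (SD 0.0636 and 0.0666), and it was 2.58-fold lower (log2 fold change -1.37, standard error 0.0919, adjusted p = 4.23e-05). KLHL23 had 8.81, 8.74, 9.53 and 9.17 against 9.86, 10.62, 10.55 and 10.56. The groups did not overlap, with siControl array 1 the nearest to the siGATA2 arrays (log2 fold change -1.33, standard error 0.238, adjusted p = 0.00441).

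KLHL31, known from skeletal and heart muscle, was dim. It had 4.61, 4.66, 4.79 and 4.64 on siGATA2 and 6.21, 6.13, 5.77 and 6.15 on siControl arrays 1 to 4, the third siControl array not being well above background. The groups did not overlap (log2 fold change -1.39, standard error 0.126, adjusted p = 0.000158). KLHL32 was dimmer still, with 3.94, 3.85, 4.13 and 3.59 against 5.46, 4.87, 5.06 and 4.17, and was well above background on 3 siGATA2 and 2 siControl arrays. Its lowest siControl value, 4.17, lay just above its highest siGATA2 value, 4.13 (log2 fold change -1.01, standard error 0.269, adjusted p = 0.0263), and the call was lost under 12 of 20 alternatives, among them the omission of siControl array 2 or 3 (adjusted p = 0.063 and 0.0638) or of siGATA2 array 1, 2 or 4 (0.0559, 0.0642 and 0.0677). Within slide row 1 the KLHL32 difference was -0.19 and within row 2 it was -1.55. Another KLHL32 probe, to the same transcript, was well above background on 0 of 8 arrays (means 1.72 in siGATA2 and 1.99 in siControl). The seventh, KLHL25, an adaptor that targets the translation repressor EIF4EBP1, fell by less, to a signal 1.52-fold lower (log2 fold change -0.60, standard error 0.119, adjusted p = 0.00721). Its call was lost under 2 of 21 alternatives, E1A scaling among them. Of the 24 paralogues well above background on all 8 arrays, which leave out KLHL31, KLHL32 and other dim members, 5 fell and 3 rose. Of genes with a curated messenger RNA, which were not held to that condition, 19.5% fell and 15.3% rose.

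KLHL42, known as an adaptor for the katanin subunit that severs microtubules, had the largest rise among the called paralogues, with a siGATA2 mean of 11.73 ± 0.327 and a siControl mean of 10.88 ± 0.11 (SD, n = 4; log2 fold change 0.85, standard error 0.172, adjusted p = 0.00792). KLHL28 rose from 11.49 ± 0.165 to 12.29 ± 0.385 (log2 fold change 0.80, standard error 0.201, adjusted p = 0.0206). KLHL22, an adaptor for the mitotic kinase PLK1 and for DEPDC5 of the amino acid sensing pathway, rose from 9.76 ± 0.102 to 10.36 ± 0.254 (log2 fold change 0.60, standard error 0.145, adjusted p = 0.0184). The groups did not overlap in any of the 3. The call of KLHL28 was lost without siControl array 2 or 4 or siGATA2 array 3 (adjusted p = 0.0577, 0.0608 and 0.0537), and that of KLHL22 without siControl array 2 or siGATA2 array 2 (0.051 and 0.0533). With the slide row as a block the call of KLHL22 was lost too (0.0896), and with the replicate block those of KLHL22 (0.0607) and KLHL28 (0.0554). With siControl arrays 2 and 4 only, KLHL22 (0.0893) and KLHL28 (0.0545) were again not called, and with E1A scaling 0 of the 3 were called.

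Values follow for adaptors with well known substrates that passed the test in neither direction. Of the Aurora B adaptors of mitosis, KLHL9 had a log2 fold change of 0.51 (adjusted p = 0.0958), KLHL13 -0.92 (0.118) and KLHL21 -0.26 (0.103). KLHL13 was called lower, at -1.19 (adjusted p = 0.0422), without siControl array 1, as was KLHL21, at -0.32 (0.0238). KLHL18, which acts on Aurora A, was at 0.15 (0.413), KLHL12, which acts on SEC31A of secretory vesicles and on Dishevelled, at 0.24 (0.15), KLHL20, which acts on PML and the death kinase DAPK1, at -0.11 (0.607), and KLHL15, which acts on the phosphatase subunit PPP2R5B, at 0.46 (0.178). With scaling to the 75th percentile KLHL15 was called higher, at 0.72 (adjusted p = 0.00536), and with array weights so was KLHL9, at 0.63 (0.0155). Of the adaptors of the WNK kinases that regulate salt transport, KLHL2 was at 0.39 (0.181) and KLHL3 at 1.26 (0.112).

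KLHL3 had the largest standard error, 0.511, among the members well above background on all 8 arrays. It read 9.27, 9.19, 7.89 and 7.93 on siGATA2 arrays 1 to 4 and 8.60, 7.04, 6.81 and 6.79 on siControl arrays 1 to 4. The groups overlapped through siControl array 1 alone, and without that array KLHL3 was called higher, at 1.69 (adjusted p = 0.0208).

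Members best known from other tissues were measured too. KLHL10, known from the testis, had a log2 fold change of 0.25 (adjusted p = 0.436), KLHL41, a muscle protein, 0.05 (0.8), KLHL17, known from neurons, 0.02 (0.983), and KLHL24, known from the skin, where it acts on keratin 14, 0.09 (0.729). KLHL6, known from B cells, was not well above background on siControl arrays 1 and 3, and its difference of 1.25 had a standard error of 0.705 (adjusted p = 0.238). The remaining 7 paralogues, KLHL11, KLHL26, KLHL29, KLHL33, KLHL34, KLHL36 and KLHL38, had log2 fold changes from 0.11 to 0.35, and none passed the test.

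The arrays within siGATA2 did not behave as 4 equal replicates for the family. Over the 32 paralogues the median absolute difference was 0.0641 between siGATA2 arrays 1 and 2 and 0.0875 between arrays 3 and 4, but 0.455 between the means of the 2 pairs. All genes showed the same, with 0.101, 0.0953 and 0.386. The standard errors, intervals and adjusted p-values given here take the 4 arrays of a group as independent. Where arrays go in pairs like these, such values can be too small and the intervals too narrow. Between the pairs 15 of the 32 paralogues differed by more than 0.5, of which 10 were higher and 5 lower on arrays 3 and 4, whereas KLHL1 differed by -0.02. KLHL17 read 14.42, 14.42, 12.85 and 12.88 on siGATA2 and 14.61, 13.29, 13.28 and 13.30 on siControl arrays 1 to 4, and KLHL33 9.47, 9.47, 8.60 and 8.61 against 9.27, 8.44, 8.52 and 8.51. Together with KLHL3 these genes were high on siGATA2 arrays 1 and 2 and siControl array 1, which are also the siGATA2 arrays and the siControl array with the highest GATA2 signal. The part of the GATA2 signal in these values was not tested.

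**Figure D3:**
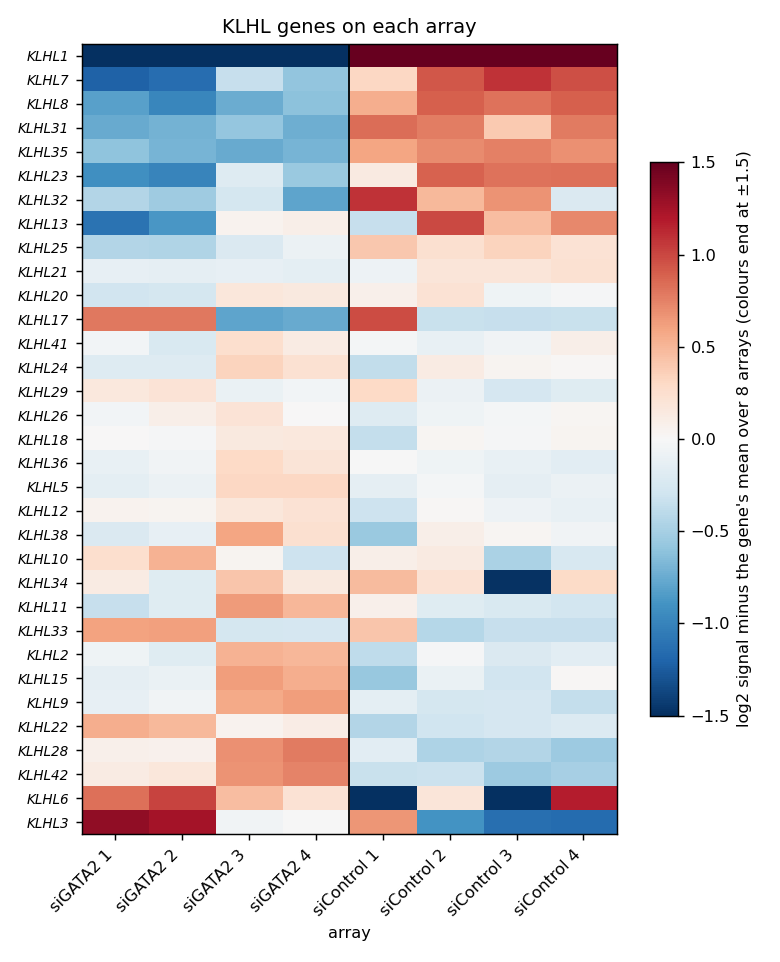
Log2 signal of the 33 KLHL genes tested on each of the 8 arrays, minus the mean of the gene over the arrays, with colours ending at 1.5 in either direction. KLHL1 and the 6 paralogues next to it, which fell by at least 2-fold, change at the line between the groups. In 19 of the 32 paralogues the groups overlap, and KLHL17, KLHL33 and KLHL3 are high on siGATA2 arrays 1 and 2 and on siControl array 1.

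The machinery that KLHL adaptors plug into was described from lists of related genes. Of 24 genes of the CUL3 ligase core and of neddylation, the attachment of NEDD8 that activates cullins, 2 were lower and 5 higher in siGATA2, with a median of 0.32. Among all genes the shares were 14.2% lower and 12.3% higher and the median 0.09. Among genes measured through a curated messenger RNA, as the genes of this list were, the shares were 19.5% lower and 15.3% higher. The counts of the lists that follow are to be read against both sets of shares. CUL3 itself rose from 14.23 to 14.92 (log2 fold change 0.69, standard error 0.129, adjusted p = 0.00548), with siGATA2 arrays at 14.70, 14.75, 15.11 and 15.11 and siControl arrays at 14.18, 14.28, 14.23 and 14.21. RBX1, the RING subunit of the ligase, was at 0.33 (adjusted p = 0.114). DCUN1D4, which helps to attach NEDD8, and DCUN1D2, a relative of it, rose by 1.07 and 0.82, and so did SENP8, which matures and removes NEDD8, by 0.82 (adjusted p = 0.0011, 0.00296 and 0.029). COPS7B, a subunit of the complex that takes NEDD8 off cullins, and DCUN1D5 were the genes that fell, with log2 fold changes of -1.03 and -0.78 (0.00734 and 0.002). COPS4, a further subunit of that complex, was higher, at 0.68 (adjusted p = 0.031), so the called subunits of the complex went in opposite directions. The count of 5 rises became 3 with scaling to the 75th percentile or without siControl array 1, 2, 3 or 4 or siGATA2 array 3 or 4, and with E1A scaling 0 genes of this list rose and 0 fell.

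Of the 14 BTB-Kelch genes tested that have other symbols, 2 were lower, 2 higher and 10 neither, with a median of 0.07, which is near the shares of all genes (14.2% and 12.3%). KBTBD11 fell from 13.02 to 11.27 (log2 fold change -1.75, adjusted p = 0.000105) and IVNS1ABP, which binds an influenza virus protein and actin, from 10.30 to 8.84 (-1.46, 7.37e-05). KBTBD4 and KBTBD3 were higher, by 0.81 (adjusted p = 0.00572) and 0.69 (0.016). KEAP1, the sensor that controls the oxidative stress factor NRF2, was at -0.27 (0.277) and ENC1 of the nervous system at 0.03 (0.97). Of 12 genes listed as BTB adaptors without Kelch repeats, 5 were lower and 1 higher, with a median of -0.26. The shares were 14.2% and 12.3% of all genes and 19.5% and 15.3% of those with a curated messenger RNA. The list also holds the BTB transcription factor genes BACH1, 1 of the 5 that were lower, and ZBTB16. Lowest was RHOBTB3, at 5.40, 5.07, 5.74 and 5.68 on siGATA2 and 8.37, 9.10, 8.92 and 8.98 on siControl arrays (log2 fold change -3.37, standard error 0.212, adjusted p = 3.3e-05).

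Of 24 known substrates and partners of KLHL adaptors, 8 were lower and 3 higher, with a median of -0.21, against 14.2% and 12.3% of all genes and 19.5% and 15.3% of those with a curated messenger RNA. EIF4EBP1, the target of KLHL25, had a log2 fold change of -2.33 (adjusted p = 2.65e-05), the mitotic kinase AURKB, the target of KLHL9, KLHL13 and KLHL21, of -2.16 (0.00078), and AURKA, the target of KLHL18, went from 12.29 to 10.29 (0.000401). PPP2R5B, the target of KLHL15, rose from 10.73 to 13.21 (log2 fold change 2.48, standard error 0.119, adjusted p = 1.63e-05). WNK1 and SEC31A were the other rises, at 0.34 (adjusted p = 0.0485) and 0.39 (0.0352). These are transcript levels, whereas the adaptors are known to act on the proteins.

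**Figure D4:**
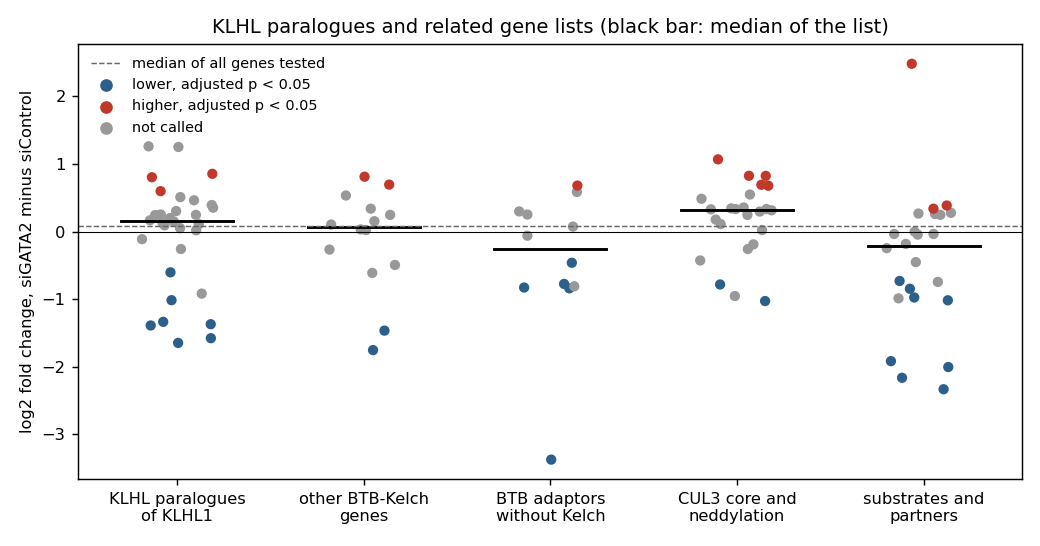
Log2 fold change (siGATA2 minus siControl) of each gene tested among the KLHL paralogues and 4 lists of related genes, with the median of each list as a bar and the median of all genes as a dashed line. Blue is lower, red higher and grey not called at an adjusted p under 0.05. The medians run from -0.26 for the BTB adaptors without Kelch repeats to 0.32 for the CUL3 core.

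Since KLHL1 is known from neurons, markers of neuronal and neuroendocrine cells were set beside it. Of 14 such genes 10 were tested and 3 were well above background on all 8 arrays, 0 fell and 1 rose (14.2% and 12.3% of all genes), namely ENO2 (log2 fold change 1.95, adjusted p = 4.03e-05). Their mean level was 6.12 to 6.26 on the siGATA2 arrays and 5.44 to 6.08 on the siControl arrays, and STMN2, RBFOX3, INSM1 and NEUROD1 were below the filter. Of 7 tested markers of basal, stromal and blood cells, 0 fell and 1 rose, again beside 14.2% and 12.3% of all genes, namely PTPRC (0.87, adjusted p = 0.00138), and their mean level was 5.89 to 6.18 on siGATA2 and 5.99 to 6.32 on siControl arrays. Of the 7 LNCaP markers, 3 fell and 1 rose, beside the same shares of 14.2% and 12.3%.

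Under every processing tried, the distance between KLHL1 and its paralogues remained. The lowest paralogue was KLHL7 or KLHL8, and its log2 fold change was above that of KLHL1 in each case. KLHL7, KLHL8, KLHL23 and KLHL35 kept their call as lower in all 21 alternatives and KLHL31 in 20 of 21, the exception being E1A scaling (-1.67, adjusted p = 0.0715). With normexp the fall of the dim KLHL31 shrank from -1.39 to -0.49, under 2-fold.

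**Figure D5:**
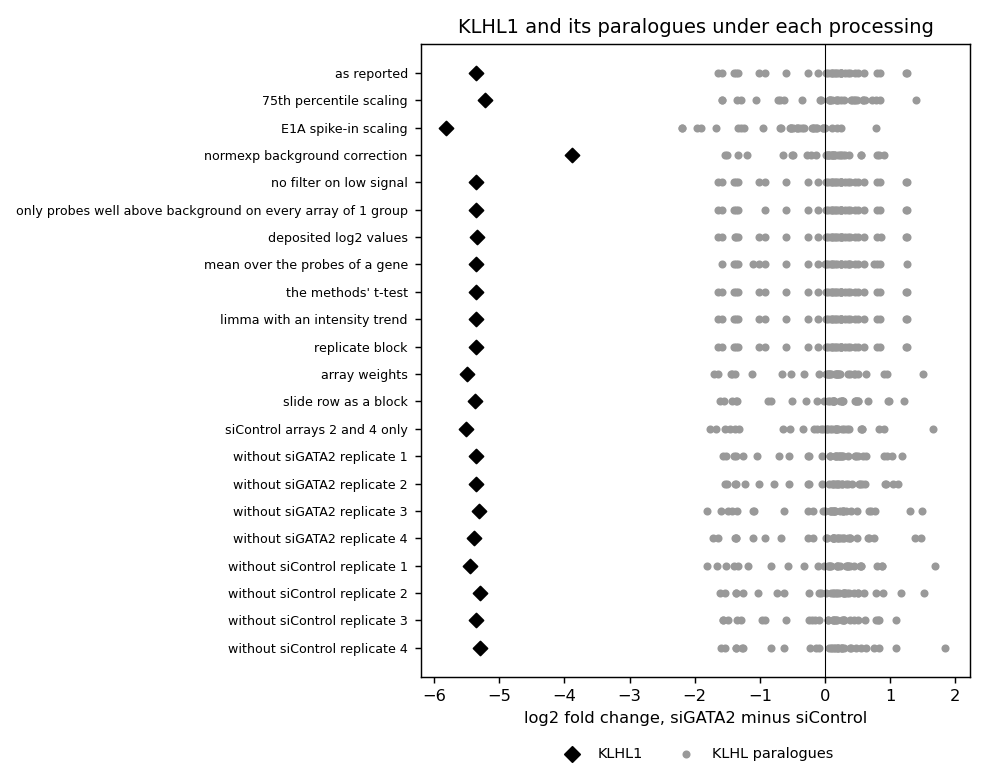
Log2 fold change (siGATA2 minus siControl) of KLHL1 (black) and of each KLHL paralogue tested (grey) as reported and under each alternative of processing, one per line. KLHL1 lies between -5.83 and -3.88 and apart from every paralogue on each line.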

How the data were processed

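RNA of LNCaP cells, taken 72 h after 30 nM siGATA2 or siControl, was measured on 4 one-colour arrays a group, as labelled. The authors deposited spot intensities from Agilent Feature Extraction 11.0.1.1, of which the background-corrected processed signal and quality flags entered here, together with log2 values in a matrix, quantile-normalized in GeneSpring per the methods, which served as an alternative. The array design in the file headers differs from the one the methods name.

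From the intensities, log2 processed signals were averaged over unflagged spots and quantile-normalized over the 8 arrays. Probes were named by RefSeq accession through a table of GRCh38.p14, where 26364 of the 27902 probes with an accession matched a symbol. The 1914 probes without annotation and those averaging under 3 were removed, the brightest probe stood for a gene, and lmFit and eBayes of limma 3.58.1 (R 4.3.3) were used with Benjamini-Hochberg adjustment over all 28849 genes, at 0.05 for calls and a fold of 2 where stated. The test was checked on simulated data with 200 changed genes. It recovered 39% of changes of 1 and 69% of changes of 2 on the log2 scale, and 5.26% of its calls were false. In the data themselves 4086 genes were called lower and 3558 higher, far more than the 200 simulated. The adjusted p depends on the share of changed genes, so these rates do not carry over to the data. A gene that passed the test in neither direction may still have changed. The other 2 LNCaP markers looked up are not reported here. Arrays have no read depth, and the number of arrays limits the precision.

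The members and the gene lists were chosen with earlier results of these data known. Named were KLHL1, paralogues called with a 2-fold change, the closest relatives of KLHL1, other called paralogues, CUL3, RBX1, KEAP1, ENC1, ATXN8OS, GATA2, and up to 3 called genes in each direction of a list. The rule asked for the 3 paralogues of highest protein identity. Protein sequences were not used here, so KLHL4 and KLHL5 were taken as the known closest relatives. The paralogues named beside their substrates or tissues, the nearest genes of KLHL1, and COPS4 were added after their values were seen. Alternatives were other scalings (75th percentile, 7 E1A spike-in probes), normexp with an offset of 50 on the median signal, other filters, the deposited values, the mean over a gene's probes, the methods' t-test, an intensity trend, the replicate number or slide row as a block, array weights, each array left out and, chosen after seeing the data, siControl arrays 2 and 4 only. Slide was not a block, as there was 1 slide.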

Additional observations from a re-analysis of the deposited data

Results flagged for a closer look

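Among 66 groups of 4 arrays (33 KLHL genes in siGATA2 and in siControl), 7 held an array that stood apart from the other 3, where chance alone marks about 1 group in 20. That rate holds for independent groups, and these groups share the same 8 arrays, so the count cannot be judged against it. All 7 were siControl groups, and in 6 of them the array was siControl array 1, on which the E1A spike-in signal was also the lowest. The rule looks for 1 array apart from the other 3, so it can hardly mark siGATA2 groups, whose arrays split into pairs. On that array KLHL17 read 14.61 (13.28 to 13.30 on the others), KLHL33 read 9.27 (8.44 to 8.52) and KLHL3 read 8.60 (6.79 to 7.04), all higher than the rest. It was lower for KLHL23, at 9.86 (10.55 to 10.62), for KLHL21, at 13.98 (14.24 to 14.28), and for KLHL18, at 11.32 (11.67 to 11.73). The remaining value was KLHL34 on siControl array 3, at 2.30 (4.00 to 4.25), a spot not well above background. KLHL1 was not among these genes in either group.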

How the results depend on the processing

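The count of paralogues that fell (7) ranged from 6 to 9 when 1 array was left out and became 4 with E1A scaling, and the count that fell by at least 2-fold (6) stayed at 4 to 6. The count that rose (3) was 5 with 75th percentile scaling or array weights, 1 with siControl arrays 2 and 4 only, 0 with E1A scaling and 1 to 4 without 1 array, the lowest without siControl array 2. The count that rose by at least 2-fold (0) was 1 with array weights and 0 to 1 without 1 array, the 1 being KLHL3 without siControl array 1. In the CUL3 list the 5 rises were 3 at the 75th percentile, 3 with siControl arrays 2 and 4 only, 0 with E1A scaling and 3 to 5 without 1 array, and the 2 falls were 0 with E1A scaling and 2 to 3 without 1 array. Arrays of equal replicate number did not deviate alike throughout, the correlations of their deviations being 0.54, -0.31, 0.17 and 0.22. The sample titles also carry letters, A, B, E and F for siGATA2 and B, D, F and G for siControl. By these, siGATA2 array 2 shares a letter with siControl array 1, and siGATA2 array 4 with siControl array 3. A pairing by letter was not tested. With the replicate block 7 paralogues fell and 2 rose, 1 of them (KLHL3, adjusted p = 0.0261) by at least 2-fold. No called KLHL gene reversed its direction. For the other lists this was not tabulated gene by gene. Over all genes the median was 0.09 as reported, 0.18 at the 75th percentile and -0.43 with E1A scaling. E1A scaling follows the spike-ins, which read 11.13 on siControl array 1 and 13.45 to 13.83 elsewhere, so it raises that array. The causes were not tested. Dim probes such as KLHL4, KLHL14, KLHL30 and KLHL40 limit what can be said of those members.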
